A study of Homo sapiens with 6 samples.

Results

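Histone lysine methyltransferases, called writers here, and demethylases, called erasers, were described in RS4;11, an established human B-cell precursor leukemia line with the KMT2A::AFF1 fusion gene. RNA was sequenced from 3 libraries of cells with asparagine and 3 libraries of asparagine-depleted cells, the latter collected 16 hours after the amino acid was removed. The labels enter the same medium, free of asparagine and with 10% dialyzed serum, for all 6 samples, and the name of the depleted columns could stand for asparaginase, so the arms are named by the presence or absence of asparagine in the sample titles. All samples come from this line and no other treatment is stated, and nothing says that the replicates were separate cultures, so the p-values reflect the spread among these libraries only, and that spread may be technical.

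Members were the rows of the table whose symbol begins with KDM, KMT, SETD, EHMT, SUV39H, SUV420H, EZH, NSD or WHSC1, leaving out KMT2A and KDM3A. The rule found 45 of 11911 genes. Of these, 3 match by letters alone: NSDHL, an enzyme of cholesterol synthesis, and the antisense transcripts KDM4A-AS1 and KMT2E-AS1. The remaining 42 were 21 writers, 15 erasers and 6 SET domain relatives whose main substrate is another protein or is unsettled. All 42 passed the filter on low values, with 101 to 29294 reads per gene and library.

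Writers move methyl groups from S-adenosylmethionine to lysines of histone tails, most of them through a SET domain. Erasers take the groups off again. KDM1A and KDM1B do so as flavin-dependent amine oxidases, and the others as JmjC dioxygenases that use iron, oxygen and 2-oxoglutarate. Sites are written as histone, K for lysine and position. Methyl groups at H3K4 and H3K36 mark active promoters and transcribed gene bodies, those at H3K27 and H3K9 mark repressed genes and heterochromatin, and those at H4K20 serve compaction and genome maintenance. In acute lymphoblastic leukemia, the writers SETD2 and WHSC1 are recurrently mutated.

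In depleted cells, 6 of the 8 erasers found by the rule and grouped here under the repressive marks H3K9 and H3K27 rose and none fell. KDM1A, grouped here under H3K4, fell. By the same limma test, 25.1% of all genes were higher and 26.2% lower. Of the 6 H3K9 writers found by the rule, 3 fell and none rose, and the H3K27 writers EZH1 and EZH2 did not pass. After a correction for GC content, 7 of these erasers were higher, and of the H3K9 writers 4 were lower and SETDB1 was higher. With that correction 35.8% of all genes were higher and 34.8% lower. Without depleted library 1, all 8 erasers were higher, and 3 H3K9 writers were lower and 2 higher, when 40.5% and 41.3% of all genes were higher and lower. KDM6B stood 3.98-fold, KDM7A 3.03-fold, KDM6A 2.50-fold and KDM4A 2.13-fold higher by group means. EHMT2 was 3.35-fold, SUV39H1 1.77-fold and EHMT1 1.66-fold lower. In bulk RNA, fewer cells of a type and less RNA per cell cannot be told apart, and values are relative within each library. Writers of H3K4 and erasers of H3K4 and H3K36 went in both directions, while 2 of the 4 H3K36 writers rose and none fell. KDM4A, KDM4B and KDM4C among the 8 erasers also act on H3K36. Many values differed between the depleted libraries themselves, at H3K9 and H3K27 as well as at H3K4 and H3K36. The site groups were chosen with earlier results of these data known.

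The promoters of the member with the largest rise, the member with the largest fall, and the H4K20 paralogs that went in opposite directions are shown as the 250 bases before the RefSeq start site (GRCh38.p14, printed on the gene's strand). Capitals mark GC boxes (GGGCGG) and CCAAT boxes on either strand.
KDM6B, chr17:7833967-7834216, plus strand: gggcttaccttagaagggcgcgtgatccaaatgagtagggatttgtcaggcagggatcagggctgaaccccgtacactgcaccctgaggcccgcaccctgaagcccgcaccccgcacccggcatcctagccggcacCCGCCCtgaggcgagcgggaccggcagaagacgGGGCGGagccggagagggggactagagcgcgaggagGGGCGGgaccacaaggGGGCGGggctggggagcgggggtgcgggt
EHMT2, chr6:31897699-31897948, minus strand: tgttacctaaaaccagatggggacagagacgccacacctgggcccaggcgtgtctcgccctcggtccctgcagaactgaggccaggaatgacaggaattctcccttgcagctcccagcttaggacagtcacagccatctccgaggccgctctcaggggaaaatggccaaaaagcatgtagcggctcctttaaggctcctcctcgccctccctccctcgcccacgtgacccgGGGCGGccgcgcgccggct
KMT5B, chr11:68213649-68213898, minus strand: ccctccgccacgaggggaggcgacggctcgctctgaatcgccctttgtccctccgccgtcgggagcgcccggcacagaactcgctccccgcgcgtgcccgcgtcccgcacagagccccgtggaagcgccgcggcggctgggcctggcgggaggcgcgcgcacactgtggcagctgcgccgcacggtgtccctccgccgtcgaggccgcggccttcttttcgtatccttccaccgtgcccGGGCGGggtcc
KMT5C, chr19:55339626-55339875, plus strand: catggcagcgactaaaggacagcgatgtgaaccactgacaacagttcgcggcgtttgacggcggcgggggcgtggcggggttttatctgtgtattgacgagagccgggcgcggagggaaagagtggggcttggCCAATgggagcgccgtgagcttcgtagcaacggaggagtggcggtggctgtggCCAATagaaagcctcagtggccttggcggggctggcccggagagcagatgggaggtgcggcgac

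The KDM6B stretch held 4 GC boxes, those of EHMT2 and KMT5B 1 each, and that of KMT5C none but 2 CCAAT boxes. Of the 42 members, 40 had a promoter in the RefSeq table. A GC box stood in 30 of these 40 (75.0%), against 42.3% of all 27305 promoters, and CCAAT in 14 (35%, against 33.0%). Their median GC content was 67.0%, against 58.0% over all promoters. The 27305 promoters include those of genes outside the table, and the shares among its genes alone were not computed. The C/EBP-ATF element TGATGNAA was in 0 of the 40, against 3.2% of all promoters. The AP-1 element TGANTCA was in those of KDM4C and KDM6A (5.0%, against 6.6%), the element TGACGTCA in that of SUV39H2 (2.5%, against 1.8%), and the E2F words TTTGGCGC or TTTCCCGC in those of WHSC1 and KDM1B (5.0%, against 2.0%). Both strands were searched, N stands for any base, and none of these words contains another. These matches describe letters in this window and no binding was measured.

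Depleted libraries 2 and 3 differed from depleted library 1 in a way that touches most members. Over all genes, depleted library 1 correlated with libraries 2 and 3 at a Pearson r of 0.940 and 0.933 (log2 values), against 0.996 between libraries 2 and 3 and 0.992 to 0.996 among libraries with asparagine. Across the 42 members, which share these libraries, the gap between depleted libraries 2 and 3 and library 1 had a Pearson r of -0.92 with the GC content of the longest coding transcript (Spearman's rho -0.93), as the left panel of the plot of GC content shows. The libraries with asparagine also differed along GC content: library 2 minus libraries 1 and 3 had an r of 0.643 with it (rho 0.765). The log2 fold change itself had an r of -0.52 with GC content (rho -0.55) before a GC correction and -0.061 after it (rho -0.17). The members ranged from 38.6% GC (KDM7A) to 66.1% (KMT5C). The main changes are therefore given also after a GC correction, in which a smooth trend with GC content was removed from each library. The weak correlation after it follows from that step. A response of the cells that follows GC content would be removed as well. The B-precursor markers CD79A, CD79B, PAX5, EBF1, VPREB1, IGLL1, DNTT, RAG1 and CD22 were all in the table, with a summed level of 3795 to 4034 CPM with asparagine and 2902 to 3706 CPM in depleted cells. Of the markers of T cells, myeloid cells, erythroid cells and fibroblasts, 0 of 5, 1 of 5, 0 of 3 and 1 of 3 were in it, namely CSF1R (15.95 to 31.4 CPM) and COL1A1 (0.938 to 4.47 CPM).

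**Figure D1:**
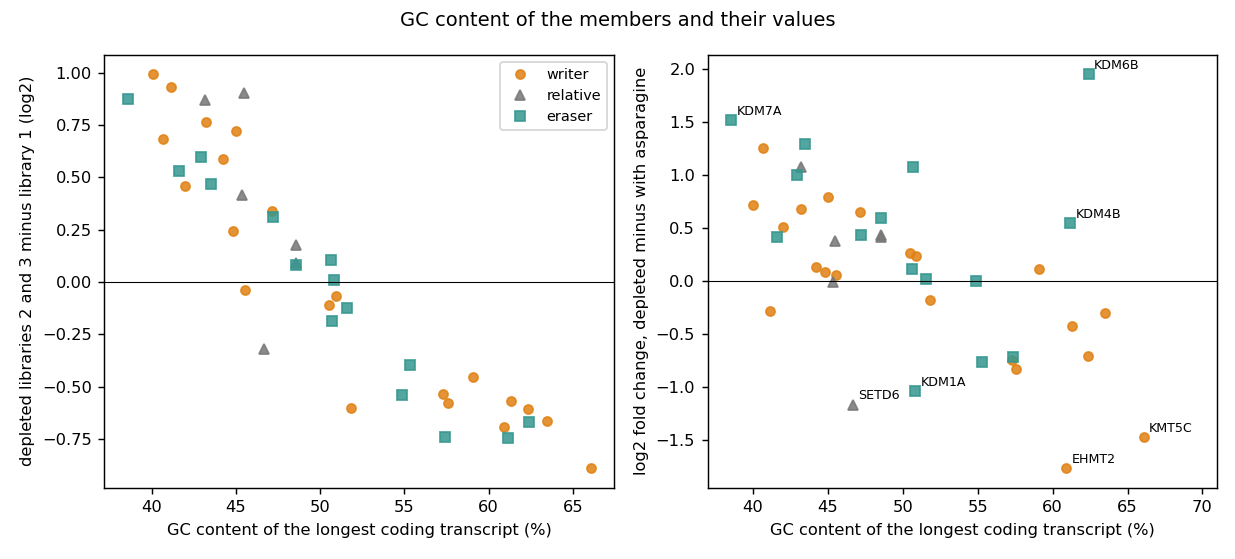
GC content of the longest coding transcript of each of the 42 members (x axis, percent) against the gap between depleted libraries (left) and the log2 fold change between the groups (right). On the left the members fall along a line from low to high GC content, and on the right KDM6B and KDM4B lie high at GC contents of 62.4% and 61.2%, while SETD6 and KDM1A lie low at 46.7% and 50.8%.

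By limma, 14 of the 42 members were higher and 9 lower (33.3% and 21.4%, Benjamini-Hochberg adjusted p under 0.05 over all genes), against 25.1% and 26.2% of the 11892 genes tested (51.3% in either direction). Of the 21 writers, 4 were higher and 5 lower. Of the 15 erasers, 7 were higher and 3 lower, and of the 6 relatives 3 and 1. Without any overlap between the groups, 18 members were higher and 9 lower in depleted cells, against 30.2% and 30.8% of all genes (61.1% in either direction). The median log2 fold change was 0.087 for writers and 0.44 for erasers, against 0.010 for all genes. Erasers lay at medians of 0.36, 0.51 and 0.50 in depleted libraries 1, 2 and 3, and writers at 0.083, 0.027 and 0.068. After the GC correction 8 writers were higher and 6 lower, and 10 erasers were higher and 3 lower, when 35.8% of all genes were higher and 34.8% lower (70.6% in all). Without depleted library 1, 10 writers were higher and 8 lower, and 10 erasers were higher and 4 lower, when 40.5% and 41.3% of all genes were (81.8% in all). Without any other library, 7 to 9 members were higher and 6 to 8 lower, with 1 or 2 writers and 6 erasers higher. The calls of KMT2C, WHSC1L1, SETD4, SETD5, KDM4C and KDM8 were lost without any 1 of those 5 libraries, and those of SETD1A, EHMT1, KMT2E and NSD1 without 1 or more of them. Writers and erasers are small sets and the difference between them was not tested.

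**Figure D2:**
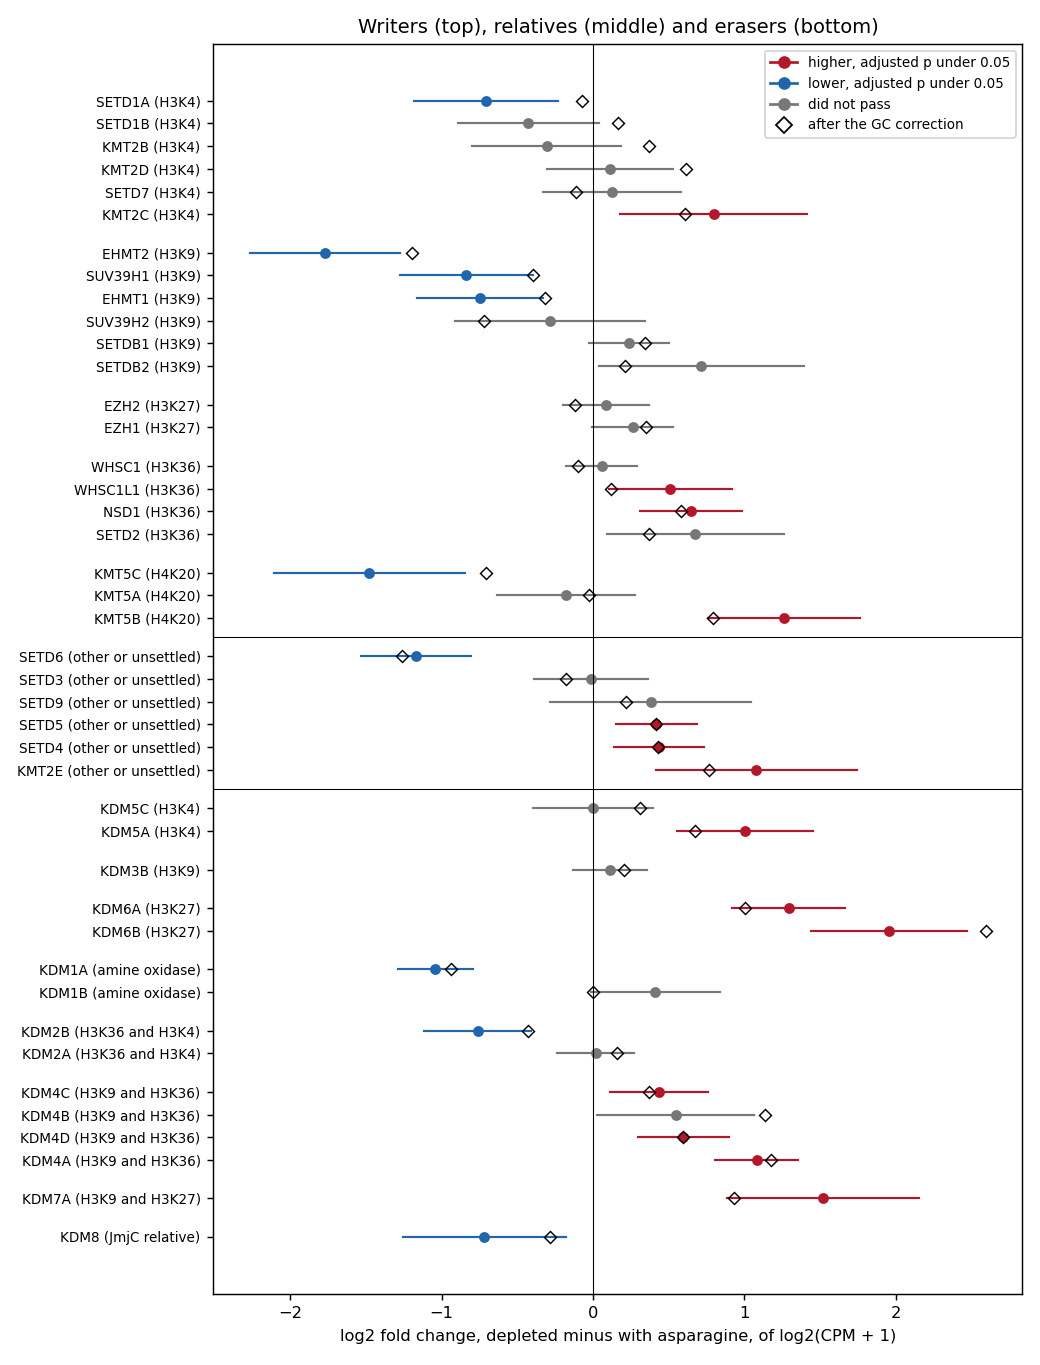
Log2 fold change of each of the 42 members with its 95% interval (x axis, depleted minus with asparagine), by class and histone site, with the GC-corrected value as an open diamond. The site label of KDM4D is that of its KDM4 paralogs. KDM6B, KDM6A, KDM7A and KDM4A lie at or above 0.93 on either scale and EHMT2 lies at -1.77 and -1.19, while the H3K4 writers shift towards higher values after the correction except KMT2C and SETD7.

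Erasers of H3K27 were among the members that rose most. KDM6B, which removes methyl groups from H3K27 and is known as a gene induced early by stress and inflammatory signals, had 97.1, 95.3 and 74.9 CPM in libraries 1, 2 and 3 with asparagine and 471, 308 and 285 CPM in the depleted ones. Every depleted value was more than any value with asparagine, and depleted library 1 was the highest. The log2 fold change was 1.95 (SE 0.22, limma adjusted p = 0.000867) and 2.59 after the GC correction, on a transcript with 62.4% GC. KDM6A, its X-linked relative within the KMT2C and KMT2D complexes, had 69.8, 68.3 and 69.8 CPM with asparagine and 138, 189 and 192 CPM in depleted cells. The groups did not overlap, and here depleted library 1 was the lowest of its group. Its log2 fold change was 1.29 (SE 0.16, adjusted p = 0.00117), or 1.00 after the correction. KDM7A, which acts on H3K9 and H3K27, had 24.7, 20.7 and 28.8 CPM with asparagine against 47.9, 86.2 and 91.1 CPM without it. It changed by 1.52 (SE 0.27, limma adjusted p = 0.0044), and by 0.93 after the correction.

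The H3K27 writers did not pass the test. EZH2, the catalytic subunit of Polycomb repressive complex 2 in dividing cells, had 189.9, 189.1 and 200.9 CPM with asparagine and 183, 218 and 217 CPM in depleted cells, and the groups overlapped. EZH2 differed by 0.087 on the log2 scale (95% interval -0.20 to 0.37, limma adjusted p = 0.558), which turned to -0.12 after the GC correction (adjusted p = 0.0467). EZH1, its paralog of resting cells, had 72.3, 71.7 and 67.5 CPM with asparagine and 89.1, 84.9 and 80.3 CPM without it. These groups did not overlap. The difference was 0.26 on the log2 scale (95% interval -0.006 to 0.53, adjusted p = 0.0909) and 0.35 after the correction (adjusted p = 0.000894). Per kilobase of the longest coding transcript, EZH2 stood at 73.3 CPM with asparagine and 78.0 in depleted cells, and EZH1 at 15.3 and 18.3.

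Of the 4 KDM4 erasers found by the rule, 3 rose, against 25.1% of all genes. KDM4A had 88.8, 97.7 and 93.2 CPM with asparagine and 216, 191 and 188 CPM in depleted cells, without overlap and with close values inside each group. Its log2 fold change was 1.08 (SE 0.12, limma adjusted p = 0.000777), or 1.18 after the GC correction. The antisense transcript KDM4A-AS1, 2.74-fold lower at 2.63, 2.42 and 1.98 CPM against 6.02, 7.11 and 6.16 CPM with asparagine, went the other way (adjusted p = 0.00118). Annotated exons of other genes cover 48.5% of the exonic bases of KDM4A, and no strand setting is stated, so reads of such neighbours cannot be told apart. KDM4C, a paralog, rose by 0.44 (adjusted p = 0.035), and 0.37 after the correction. KDM4D, which stood at only 2.45 to 3.03 CPM with asparagine and 4.48 to 4.83 CPM without it, rose by 0.60 (adjusted p = 0.00893), and 0.59 after the correction. KDM4B had 63.8, 65.7 and 60.5 CPM with asparagine and 131, 79.6 and 76.5 CPM in depleted cells. Its groups did not overlap, but depleted library 1 lay far above the others and the change of 0.55 did not pass (adjusted p = 0.0731). With GC content corrected for, it reached 1.13 (adjusted p = 1.89e-06), on a transcript with 61.2% GC. KDM3B, which acts on H3K9, had 240.1 to 249.3 CPM with asparagine and 253.2 to 275 CPM without it, a log2 fold change of 0.11 (95% interval -0.13 to 0.36, adjusted p = 0.378), or 0.21 after the correction (adjusted p = 0.0549).

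Writers of H3K9 included the largest fall of any member before the GC correction, after which SETD6 was lower still (-1.26). EHMT2, also called G9a, which places mono- and dimethyl groups at H3K9 in euchromatin, had 333, 330.1 and 288 CPM with asparagine and 127, 77.7 and 79.0 CPM in depleted cells. All depleted values were less than any value with asparagine. The log2 fold change was -1.77 (SE 0.21, limma adjusted p = 0.00105), or -1.19 after the GC correction. EHMT1, its partner in the same complex, had 186, 191 and 174 CPM with asparagine and 139.9, 101 and 91.8 CPM without it. It fell by 0.75 on the log2 scale (SE 0.17, adjusted p = 0.0124), with -0.32 after the correction, and its call was lost without depleted library 2 or without library 1 or 2 with asparagine. SUV39H1, a writer of trimethyl H3K9 in constitutive heterochromatin, had 85.2, 81.2 and 76.2 CPM with asparagine and 58.9, 39.2 and 39.0 CPM in depleted cells. It fell by 0.84 (SE 0.19, limma adjusted p = 0.0102), with -0.40 after the correction. Exons of a gene on the opposite strand cover 20.3% of its exonic bases, and such reads cannot be told apart. In these 3 genes depleted library 1 was the highest of its group and still below every library with asparagine.

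The other 3 writers of H3K9 did not pass the test. SUV39H2, the paralog of SUV39H1, had 46.8, 45.4 and 52.4 CPM with asparagine and 25.3, 48.6 and 49.6 CPM in depleted cells. Only depleted library 1 lay outside the range with asparagine. SUV39H2 differed by -0.28 on the log2 scale (95% interval -0.91 to 0.35, adjusted p = 0.396), 0.029 without depleted library 1, and -0.72 after the GC correction (adjusted p = 0.000424). SETDB1, which silences retroelements with TRIM28, had 90.6 to 101 CPM with asparagine and 108 to 116 CPM without it, a change of 0.24 (95% interval -0.026 to 0.50, adjusted p = 0.112), and it was higher by 0.35 after the correction (adjusted p = 0.0015). SETDB2, its relative, had 7.75 to 8.69 CPM with asparagine and 8.52, 16.3 and 19.8 CPM in depleted libraries 1, 2 and 3 (0.72, adjusted p = 0.0725, or 0.21 after the correction).

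**Figure D3:**
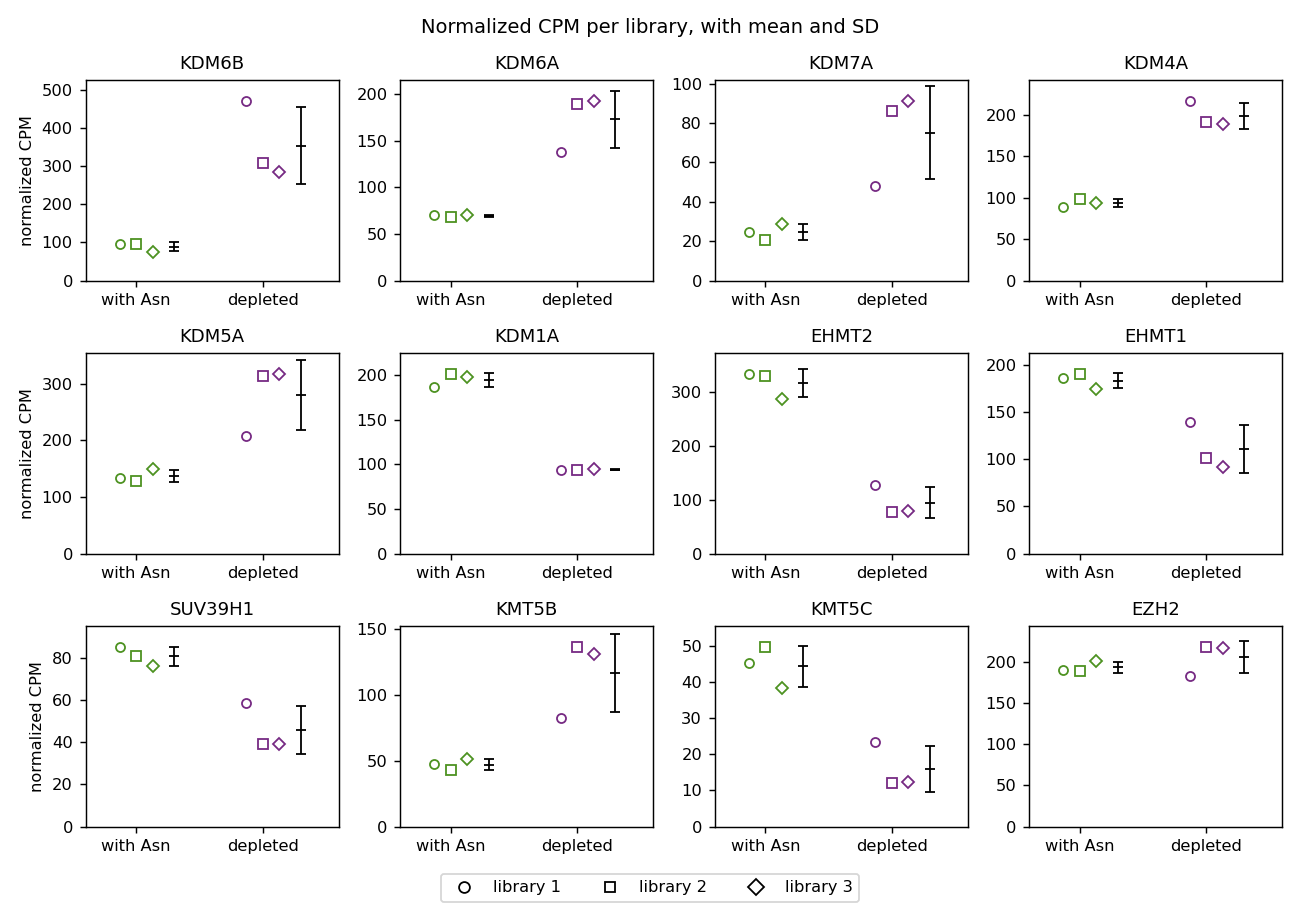
Normalized CPM (y axis, from 0) of 12 members in each library with asparagine and each depleted library, with mean and SD of each group of 3 beside the points. The groups do not overlap for any of the members shown except EZH2, and depleted library 1 (circle) is apart from libraries 2 and 3 in most panels but not for KDM1A.

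The level of writers relative to erasers of a site was summarised in each library as the difference of their mean log2(CPM + 1), set to 0 for the mean with asparagine. For H3K9, with 6 writers and 6 erasers, it was -1.12, -1.21 and -1.16 in depleted libraries 1, 2 and 3, and -0.035 to 0.029 with asparagine. For H3K27, with EZH1 and EZH2 against KDM6A, KDM6B and KDM7A, it was -1.31, -1.45 and -1.49, and -0.045 to 0.046 with asparagine. After the GC correction the depleted means were -1.08 and -1.39, from -1.16 and -1.42. For H3K4, with 6 writers against KDM1A, KDM1B, KDM5A and KDM5C, the depleted values were 0.047, -0.23 and -0.30 and overlapped those with asparagine, and their mean turned from -0.16 to 0.25 after the correction. For H3K36, with 4 writers against KDM2A, KDM2B, KDM4A, KDM4B and KDM4C, they were -0.20, 0.37 and 0.46, and the mean turned from 0.21 to -0.24. KDM7A counts for H3K9 and H3K27, and KDM4A, KDM4B and KDM4C for H3K9 and H3K36. These differences of mean log2 values describe RNA of chosen genes, weigh each gene alike whatever its level, and carry no test.

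**Figure D4:**
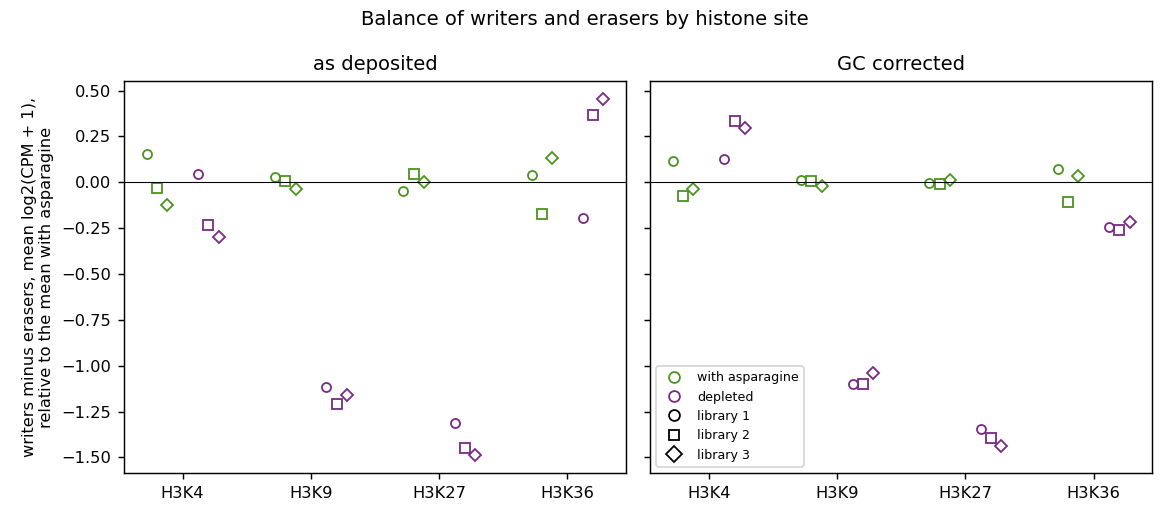
Mean log2(CPM + 1) of writers minus that of erasers per library (y axis, relative to the mean with asparagine), by histone site, as deposited (left) and after the GC correction (right). At H3K9 and H3K27 all depleted libraries lie between -1.04 and -1.49 in both panels, while at H3K4 and H3K36 the mean of the depleted libraries is on opposite sides of 0 in the panels.

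Amine oxidase KDM1A, also called LSD1, which removes mono- and dimethyl groups from H3K4 within the CoREST complex, fell most evenly. It had 186, 200.7 and 197 CPM with asparagine and 93.7, 93.5 and 94.9 CPM in depleted cells, so the depleted libraries were nearly identical and far from the others. The log2 fold change was -1.04 (SE 0.10, limma adjusted p = 0.000633), or -0.94 after the GC correction. KDM1B, its relative known from imprinting in oocytes, had 45.0, 44.2 and 50.01 CPM with asparagine and 48.3, 66.6 and 73.8 CPM without it (0.41, adjusted p = 0.0945, or -0.002 after the correction). KDM5A, a JmjC eraser of trimethyl H3K4, rose from 133, 128 and 149 CPM to 208, 314 and 317 CPM. The groups did not overlap, and the rise of 1.004 on the log2 scale (SE 0.19, adjusted p = 0.00558) was 0.68 after the correction. Its X-linked paralog KDM5C, among the most abundant members, had 459, 463 and 432 CPM with asparagine against 578, 404 and 392 CPM in depleted cells, which lie on both sides of the former, and its fitted change was near 0 (95% interval -0.40 to 0.40).

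Of the 6 writers of H3K4, 1 rose and 1 fell, against 25.1% higher and 26.2% lower over all genes. KMT2C, which primes enhancers with monomethyl H3K4 and has a transcript of 45.0% GC, had 219.9, 145 and 228 CPM with asparagine and 242, 395 and 403 CPM in depleted cells. The groups did not overlap but library 2 with asparagine was low, and the change of 0.80 (SE 0.26, adjusted p = 0.0399) was 0.61 after the GC correction. KMT2C also has partial copies elsewhere in the genome, so its reads are uncertain. SETD1A, which serves promoter trimethylation and has 62.4% GC, had 162, 161 and 130 CPM with asparagine and 121, 79.6 and 79.5 CPM without it. It fell by 0.71 (SE 0.20, limma adjusted p = 0.0248), a call that ended at -0.070 after the correction (adjusted p = 0.407). SETD1B, KMT2B, KMT2D and SETD7 did not pass, with log2 fold changes of -0.43, -0.31, 0.11 and 0.13. After the correction KMT2B stood at 0.37 and KMT2D, the most abundant member in CPM, at 0.62 (adjusted p = 0.00146 and 0.000615).

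Of the 4 writers of H3K36, 2 rose and none fell, against 25.1% higher and 26.2% lower over all genes. NSD1, which places dimethyl H3K36 between genes and in gene bodies, had 167, 164 and 189.7 CPM with asparagine and 232, 284 and 306 CPM without it. It rose by 0.65 (SE 0.14, limma adjusted p = 0.0098), and 0.58 after the GC correction, a call lost without library 2 with asparagine. WHSC1L1, the older symbol of NSD3, rose by 0.51 (SE 0.17, adjusted p = 0.0428) and stood at 0.12 after the correction (adjusted p = 0.108). SETD2, the main writer of trimethyl H3K36, had 166, 124 and 172 CPM with asparagine and 171, 301 and 283 CPM in depleted cells, so library 1 lay within the range of the other group (0.68, adjusted p = 0.055, or 0.37 with adjusted p = 0.0456 after the correction). WHSC1, the older symbol of NSD2, had 378 to 407 CPM with asparagine and 396 to 414 CPM in depleted cells, a log2 fold change of 0.057 (95% interval -0.18 to 0.29). Of the erasers of H3K36, KDM2B, which also targets variant Polycomb complexes to CpG islands, fell from 189, 195 and 173 CPM to 131, 102 and 97.3 CPM, by 0.76 on the log2 scale (SE 0.15, adjusted p = 0.00642), with -0.43 after the correction. KDM2A, its paralog, did not pass, with 175 to 188 CPM and 176 to 196 CPM (0.018, 95% interval -0.24 to 0.27), and stood at 0.16 after the correction (adjusted p = 0.0326).

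The H4K20 writers went in opposite directions. KMT5B had 47.1, 42.9 and 51.0 CPM with asparagine and 82.5, 136 and 131 CPM in depleted cells, and rose by 1.26 (SE 0.21, limma adjusted p = 0.00366), or 0.79 after the GC correction. KMT5C, its paralog, which also adds further methyl groups to monomethyl H4K20, had 45.0, 49.5 and 38.1 CPM with asparagine and 23.4, 12.0 and 12.3 CPM without it. It fell by 1.48 (SE 0.27, limma adjusted p = 0.00475), with -0.71 after the correction. Neither pair of groups overlapped, in either direction. Their transcripts lie near the ends of the members' GC range, at 40.7% and 66.1%, and the opposite directions held after the correction and in each depleted library, where the deviations from the mean with asparagine were 0.80, 1.52 and 1.46 for KMT5B and -0.89, -1.79 and -1.75 for KMT5C. KMT5A, which adds the first methyl group, had 53.5 to 55.5 CPM with asparagine and 63.5, 44.2 and 39.0 CPM in depleted cells (-0.18, 95% interval -0.63 to 0.28).

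Among the SET domain relatives, SETD6, which methylates the NF-kB subunit RELA, had 36.7, 37.1 and 36.2 CPM with asparagine and 18.4, 13.1 and 16.1 CPM in depleted cells. It fell by 1.17 (SE 0.15, limma adjusted p = 0.00149), or by 1.26 after the GC correction. Exons of CNOT1 on the opposite strand cover 21.4% of its exonic bases, and reads there cannot be told apart. KMT2E, which carries a SET domain without established activity on histones, had 158, 108 and 159 CPM with asparagine and 197, 358 and 366 CPM without it. It rose by 1.08 (SE 0.28, adjusted p = 0.018), and 0.77 after the correction, a call lost without depleted library 2 or 3 or without library 2 with asparagine. SETD5 and SETD4 rose by 0.42 and 0.44 (adjusted p = 0.0196 and 0.026), with 0.42 and 0.43 after the correction. SETD3, an actin histidine methyltransferase, and SETD9 did not pass (-0.013 and 0.38). KDM8, a JmjC protein whose activity on histones is disputed, was counted among the erasers by its name, and fell from 16.1, 15.6 and 13.8 CPM to 12.8, 7.27 and 7.27 CPM, by 0.72 (SE 0.23, adjusted p = 0.0353), with -0.28 after the correction. NSDHL, found by its letters alone, fell by 1.46 (adjusted p = 0.000697) and stood at -1.37 after the correction, and KMT2E-AS1 did not pass (-0.18, adjusted p = 0.441).

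The order of the members' levels changed with these shifts. Per kilobase of the longest coding transcript, EHMT2, KDM5C, EZH2 and KDM1A had the highest levels with asparagine, at 76.8, 74.0, 73.3 and 63.6 CPM per kilobase. In depleted cells EZH2 and KDM5C led with 78.0 and 75.2, followed by KDM6B with 52.9, which had stood at rank 26 of 42 with 13.3. EHMT2 moved from rank 1 to rank 17 with 22.9, and KDM1A from rank 4 to rank 9 with 30.7. The lowest were SETDB2 and KDM4D in both groups, at 1.33 and 0.932 with asparagine and 2.42 and 1.58 in depleted cells.

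Partner genes were read from lists of complex subunits, related enzymes and genes around the supply and use of the cofactors. Of 77 tested, 18 were higher and 29 lower (23.4% and 37.7%, against 25.1% and 26.2% of all genes), with a median log2 fold change of -0.11. After the GC correction 23 were higher and 36 lower, against 35.8% and 34.8%. The lists are short, and their counts are given as a description to be read against these shares. COMPASS subunits, which serve the H3K4 writers, were lower in 7 of 13 and higher in 2. WDR5, a core scaffold, stood at 160.4 ± 10.4 CPM with asparagine and 79.6 ± 8.27 in depleted cells (SD, n = 3 each), with -1.005 (limma adjusted p = 0.00135) and -0.66 after the GC correction. HCFC1 and PAGR1 fell by 1.06 and 1.10, with -0.45 and -0.51 after the correction. Polycomb complex 2 partners were higher in 3 and lower in 3 of 10. RBBP7, a histone-binding subunit shared with other complexes, fell from 239 ± 6.86 to 95.95 ± 7.25 CPM (-1.31, adjusted p = 0.000402), with -1.49 after the correction. AEBP2 and LCOR rose by 1.035 and 1.31, with 0.42 and 0.99 after it. The core subunits EED and SUZ12 did not pass, but EED stood at -0.38 after the correction (adjusted p = 0.00112) and SUZ12 at -0.074 (adjusted p = 0.497). Partners of KDM1A were higher in 5 and lower in 3 of 11, with ZNF217 up by 1.17 and the complex subunits HMG20B and RCOR2 at -1.26 and -1.22. After the correction these were 0.87, -0.57 and -0.59. RCOR1, the corepressor that holds KDM1A on nucleosomes, rose by 0.80 (adjusted p = 0.00794), with 0.63 after the correction.

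Partners of H3K9 writers were lower in 3 and higher in 1 of 9, and lower in 4 and higher in 1 after the GC correction. Over all genes 26.2% were lower and 25.1% higher, or 34.8% and 35.8% after the correction. TRIM28, which brings SETDB1 to retroelements, fell from 1244 ± 152 to 472 ± 143 CPM (-1.43, limma adjusted p = 0.00256, or -0.74 after the GC correction). WIZ, a partner of EHMT1 and EHMT2, fell by 0.79 and stood at -0.070 after the correction. ATF7IP, which protects SETDB1 from degradation, rose by 1.245, with 0.75 after the correction. Writers outside the rule were higher in 2 and lower in 4 of 11, with SMYD3 and SETMAR at -1.19 and -0.79 and ASH1L, a writer of H3K36, up by 0.85. After the correction they stood at -1.16, -0.98 and 0.59. PRDM2 rose by 0.68 (limma adjusted p = 0.0159), with 0.63 after the correction. JmjC enzymes outside the rule were higher in 3 and lower in 2 of 11, with TYW5 and JMJD7 up by 1.18 and 0.64 and JMJD4 at -0.90. After the correction they stood at 0.65, 1.204 and -0.27. PHF2, PHF8 and JMJD1C did not pass (-0.085, 0.058 and 0.91), and stood at 0.30, 0.26 and 0.40 after the correction.

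Genes listed around the supply and use of the cofactors were lower in 7 of 12 and higher in 2, with a median of -0.69 and -0.50 after the GC correction. Over all genes 26.2% were lower and 25.1% higher. The list includes OGDH (-0.86) and AHCYL1 (1.45), and its count is no measure of cofactor supply. AHCY, which clears the methylation product S-adenosylhomocysteine, fell from 363 ± 14.97 to 99.9 ± 31.3 CPM (-1.89, limma adjusted p = 0.000879, or -1.51 after the correction). MAT2A, which makes S-adenosylmethionine, fell by 0.84 (adjusted p = 0.0011), with -0.99 after the correction. IDH2, the mitochondrial isocitrate dehydrogenase that yields 2-oxoglutarate, fell from 769 ± 48.0 to 249 ± 70.7 CPM (-1.66, adjusted p = 0.00109). Its cytosolic counterpart IDH1 rose from 59.5 ± 2.70 to 181 ± 23.9 CPM (1.58, adjusted p = 0.00041). The opposite directions of IDH1 and IDH2 held after the correction, at 1.27 and -1.29.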

How the data were processed

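Total RNA of RS4;11 cells was sequenced in 6 libraries. FastQC, STAR, featureCounts and Subread were used with GRCh38, per the submitters' processing notes. For versions, annotation, strand, scaling and the authors' removal of low genes, nothing is stated in the sources used here. The deposited values are a signal in normalized CPM per gene, computed by the authors. Each value is a whole multiple of 1 step per column (100% of values, within 1e-05 of a read), which gives 29971364 to 51127073 reads per library. Column totals differed, with 1018766 to 1031234 CPM with asparagine and 918783 to 952458 CPM in depleted cells.

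Columns were matched to samples by arm and replicate number. Values were analysed as log2(CPM + 1) with limma 3.58.1 in R 4.3.3 for the 11892 genes that reached 1 CPM in 3 or more libraries, with the group as the only term, an intensity trend and two-sided Benjamini-Hochberg adjusted p-values at 0.05. Log2 fold changes are depleted minus with asparagine and understate changes of low genes. Fold values are ratios of group means in CPM.

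GC content and length are those of the longest coding transcript in GENCODE 29, with a value for 97.5% of genes (11613). The GC correction removed a lowess trend (span 0.3) of each library's deviation from the gene mean. The fit was run on simulated data with independent noise in each library, where no depleted library stands apart as in these data. The correction was run on simulated data with a straight GC trend planted in 2 libraries. Named members took the 8 writers, 2 relatives and 8 erasers with the largest changes past the threshold and at least 5 CPM, besides EZH1 and EZH2, and up to 3 genes per partner list. RCOR1, MAT2A, PRDM2, PHF2, PHF8 and JMJD1C were named beside these after their values were seen. Members, lists and site groups were chosen with earlier results of these data known. A B-precursor marker of the list is not reported here.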

Additional observations from a re-analysis of the deposited data

How the results depend on the processing

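Of the 23 members past the threshold, 22 kept their direction in every alternative run, and WHSC1L1 turned to -0.044 with a GC and length correction. Past the threshold in every alternative that tested them were 12: EHMT2, KMT5B, KMT5C, SETD6, KDM1A, KDM2B, KDM4A, KDM4D, KDM5A, KDM6A, KDM6B and KDM7A. KDM4D was removed by the filter at 5 CPM, so it had 23 alternatives and the others 24. All 19 members without a call passed under at least 1 alternative. The edgeR and DESeq2 alternatives on recovered reads were not run.

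Leaving out 1 library gave 1728 to 4812 higher and 1814 to 4913 lower genes in all. Among members it gave 7 to 24 higher and 6 to 13 lower, with 1 to 10 and 3 to 8 for writers, 6 to 10 and 2 to 4 for erasers, and 9 to 29 and 18 to 33 for partners. The median was 0.033 to 0.074 for writers and 0.36 to 0.54 for erasers. The high counts came without depleted library 1, and the fewest higher members and writers without library 2 with asparagine. At a threshold of 0.01, 1612 and 1703 of all genes, 8 and 5 members, 2 and 2 writers and 8 and 18 partners were higher and lower. Higher writers numbered 7 with quantile normalization, 8 with the GC correction, 7 with GC and length correction and 7 with the relatives added. The writers' median was then 0.22, 0.12 and -0.035 in the first 3, and the erasers' median 0.31 with GC and length correction. Leaving out depleted library 1 and correcting for GC content together, 4597 genes, 25 members, 10 writers and 11 erasers were higher.

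Of members not past the threshold, KMT2B turned to 0.37 with the GC correction, 0.24 with GC and length, 0.44 with GC and without depleted library 1, and 0.14 without depleted libraries 2 and 3. In the same order of settings SETD7 was -0.11, -0.23, -0.017 and -0.26, EZH2 was -0.12, -0.10, -0.12 and -0.076, and KDM5C was 0.31, 0.23, 0.28 and 0.36. Under the first 3 settings SETD1B was 0.17, 0.041 and 0.23, WHSC1 was -0.098, -0.23 and -0.17, and KDM1B was -0.002, -0.032 and -0.002. Without depleted libraries 2 and 3, KMT5A was 0.22 and SETD9 -0.22. KDM5C was 0.008 with trimmed mean scaling, 0.005 with median ratio scaling, 0.23 with quantile normalization and 0.003 with voom weights, where SETD3 was 0.058 with quantile normalization. Leaving out 1 library turned the sign of 5 members, whose values then ranged from -0.039 to 0.22 for KMT2D, -0.44 to 0.029 for SUV39H2, -0.093 to 0.13 for SETD3, -0.023 to 0.053 for KDM2A and -0.18 to 0.10 for KDM5C. The causes were not tested.

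Replicate numbers shared by the arms did not pair the libraries: the correlation of their deviations was 0.083, -0.65 and 0.69 for numbers 1, 2 and 3, and library 2 with asparagine went best with depleted library 1 (0.66). With a replicate block, 10 members were higher and 9 lower, with 3 and 5 writers and 6 and 3 erasers, and 2824 and 2989 of all genes. With the block and the GC correction 7 writers were higher with a median of 0.12, and KMT2B, SETD1B, SETD7, EZH2, WHSC1, KDM1B and KDM5C stood at 0.37, 0.17, -0.11, -0.12, -0.098, -0.002 and 0.31.

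Depth limits KDM4D most, with 101 reads at its lowest, and the number of libraries limits every test.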
